A study of Sus scrofa with 22 samples.

Results

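The comparison set cloned pig fetuses described as normal against naturally fertilized (NF) pig fetuses at day 35 of development, across all genes that could be named. It rests on 5 of the 22 libraries of the series: the 3 libraries titled day35-normal and the 2 titled day35-NF. The series holds 14 libraries from fetuses of days 30 and 35 and 8 from day 6 embryos. The normal clones at day 35 are fetuses from cloning, labelled male, and their source is given as body tissue. The NF fetuses of the same day carry the same sex and tissue labels and arose by natural fertilization. Values of the same groups at day 30 (3 normal clones, labelled male, and 2 NF fetuses, labelled male and female) and of 2 abnormal clones at day 35, labelled male, are given only where stated. The spread behind every test was shared over all 14 fetus libraries, which also include abnormal clones of day 30. The breed, the donor cells of the clones, the part of the body taken and the criteria for normal and abnormal are not stated in the labels or protocols. Nor do the labels or protocols say that each library came from a separate animal, so p-values measure only the spread between the fetus libraries, which may be technical.

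Cloning by somatic cell nuclear transfer places the nucleus of a body cell in an egg whose own nucleus has been removed, and the egg must then reset the chromatin of that cell to an embryonic state. Resetting is often incomplete, and errors are best known at imprinted genes, which are read from the maternal or the paternal copy only, and on the X chromosome. At this age a pig fetus has left gastrulation behind and is building its organs: muscle fibres, a beating heart, a neural tube with young neurons, a blood-forming liver, limbs and early kidneys. RNA from a body at this age can therefore mix many tissues, and the makeup of that mixture can enter any comparison of such libraries. Which part of the body was taken here is not stated.

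The 5 libraries held between 6063399 and 9091977 expected counts, and between 66.0% and 67.8% of them fell on records that matched a named gene. Between 10318 and 10948 genes were detected in each. Spearman's rho between libraries was 0.975 to 0.977 among the normal clones, 0.982 between the NF fetuses and 0.81 to 0.862 across the groups. Between days 30 and 35 rho was 0.954 to 0.99 among the NF libraries and 0.925 to 0.968 among the normal clones. These 2 ranges overlapped. Levels below are CPM, read counts scaled to a common library size and corrected for composition, always in the order normal clones 1, 2 and 3, then NF 1 and 2.

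The tissue label was checked against defining markers, and the NF libraries carried some markers of the organs that a body at this age holds and lacked others. Of the tested genes, 3 of 14 heart, 3 of 20 neuron, 3 of 21 red cell, 5 of 18 liver and 2 of 6 lung and gut genes had no count in either NF library. Among them HAND1 and TNNT2 of the heart, GAD2, NEUROD4 and SYT1 of neurons and CDX2 and VIL1 of the gut held between 24 and 432 counts over the 3 clones. Others were nearly absent from the clones too: NKX2-5, GATA1, RHAG, AHSG, AMBP, SERPINA1 and VTN had 1 to 9 counts there, and AFP 15. Other markers of the same lists were present in NF: the neuron genes STMN2 and NEFL at 254 and 243 CPM and at 76.8 and 94.3 CPM, the beta globin HBB at 177 and 168 CPM, cardiac actin ACTC1 at 693 and 728 CPM and the apolipoprotein APOA1 at 26.7 and 23.1 CPM. Summed over the tested genes of the neuron list, NF 1 and 2 held 553 and 521 CPM, and the normal clones 6812, 4208 and 3946 CPM. Over the fibroblast matrix list the order was the other way, with 54671 and 54117 CPM in the NF libraries and 26744, 37028 and 24084 CPM in the normal clones. The day 30 NF libraries stood close to those of day 35, with 980 and 599 CPM for the neuron list and 66831 and 61308 CPM for fibroblast matrix. The Y-linked gene EIF1AY was present in all 5 libraries, at 31.1, 20.5 and 28.3 CPM against 31.6 and 27.3 CPM. It did not follow the sex labels in all other libraries: EIF1AY had no count in the day 30 NF library labelled male or in either abnormal clone, and 33.5 CPM in the day 30 NF library labelled female. Summed over the 7 Y-linked genes tested, the 5 compared libraries were not level, at 852, 721 and 947 CPM in the clones against 1322 and 1278 CPM in NF. On the same sum, the 3 libraries without EIF1AY held 278, 535 and 297 CPM, not 0, and the library labelled female 1409 CPM. In this design the way a fetus was conceived and the makeup of the tissue sampled move together, and they cannot be told apart in any result below.

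Of 9911 genes tested, 4190 differed between normal clones and NF fetuses at an adjusted p under 0.05, or 42.3%. Of these, 2195 were higher in the normal clones, or 22.1% of the genes tested, and 1995 were lower, or 20.1%. All adjusted p-values come from edgeR's quasi-likelihood test with Benjamini-Hochberg adjustment over the genes tested, and fold changes are normal clones over NF with their standard error (SE). The levels of the groups did not overlap for 7219 genes, or 72.8% (37.7% with the clones higher and 35.1% with them lower), so a lack of overlap was the usual case here and marks no gene out. The difference was at least 2-fold for 2992 of the called genes. It was at least 16-fold for 475, of which 412 were higher and 63 lower. The median log2 fold change of all tested genes was 0.06, and 0.14 with the size factors of DESeq2. Leaving out NF 1 left 2789 calls and leaving out NF 2 left 2147, with the remaining NF library taken to vary like the other groups. The spread was shared over all 14 fetus libraries, of which the shallowest, an abnormal clone of day 35, held 588882 expected counts. Without that library 5630 genes were called, among them all 4190, and also MYOD1, MYOG, ACTC1, ALB, DNMT1, KARS, HOXA2, HOXA3 and HOXD1, which are given below as not called.

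**Figure D1:**
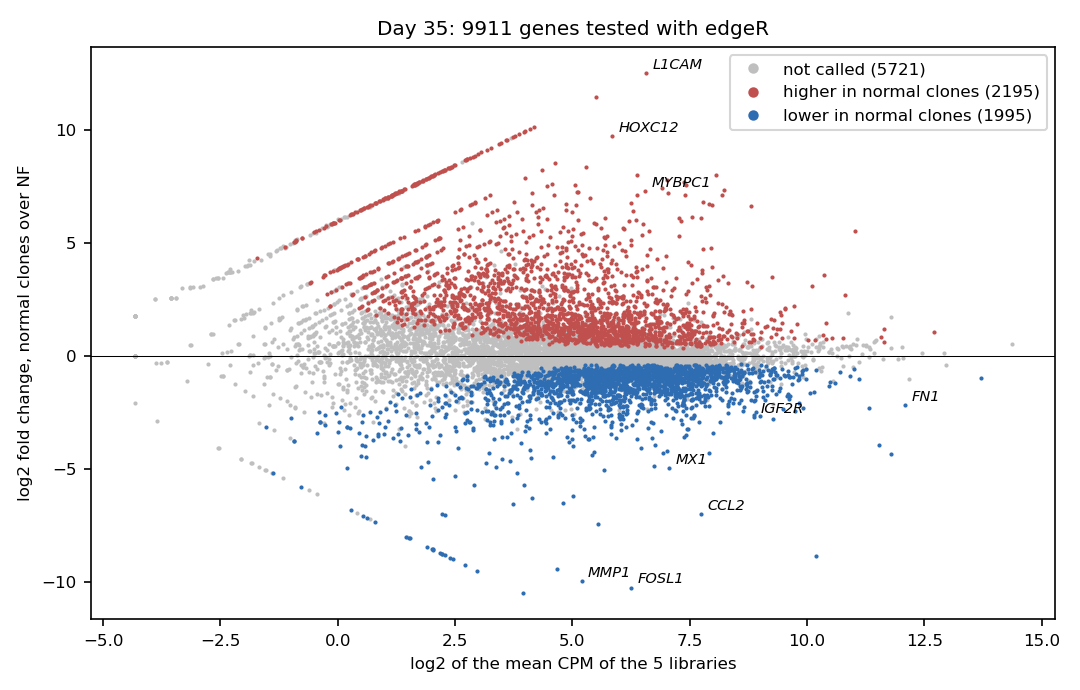
Log2 fold change of normal clones over NF at day 35 (vertical axis) against the log2 of the mean CPM of the 5 libraries (horizontal axis), 1 point per gene tested. Red points were higher in normal clones (2195), blue points lower (1995) and grey points not called; the slanting rows of points at the edges are genes with few or no counts in 1 group.

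Skeletal muscle genes were among the most unequal. Of 23 tested muscle genes 17 were higher in the normal clones and 1 was lower, against the 22.1% and 20.1% of all genes, and their median log2 fold change was 3.92 against 0.06 over all genes tested. MYH7, the slow myosin heavy chain that the heart shares, stood at 358, 134 and 158 CPM in the normal clones and at 0.855 and 1.05 CPM in the NF libraries. Its mean in the normal clones was 228-fold higher, a log2 fold change of 7.79 ± 0.87 (SE) with adjusted p = 0.000145. All 3 clones lay far above both NF libraries, with clone 1 the highest.

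MYBPC1, a protein of the thick filament of slow fibres, measured 217, 129 and 121 CPM against 0.855 and 1.05 CPM (log2 fold change 7.31 ± 0.66, adjusted p = 5.74e-05). ACTA1, skeletal muscle actin, gave 447, 155 and 239 CPM against 2.57 and 1.4 CPM, and a log2 fold change of 7.12. Both groups stayed apart in each gene, and clone 1 was again highest. The called genes also included the fast troponins TNNT3 and TNNC2 (4.29 and 5.99), the slow troponins TNNT1 and TNNI1 (4.74 and 6.70), creatine kinase CKM (4.59) and the calcium release channel RYR1 (2.34), all on the log2 scale. The regulators that commit cells to muscle were mixed. MYF6, which acts late, was called higher, at 11.6, 8.88 and 7.76 CPM against 1.88 and 1.92 CPM (log2 fold change 2.29 ± 0.53, adjusted p = 0.00639), and the call ended without NF 1 (0.0503) and without NF 2 (0.0577). MYF5, the earliest of them, was the lone gene called lower, at 15.3, 15.2 and 17.6 CPM against 70 and 122 CPM (log2 fold change -2.58 ± 0.72, adjusted p = 0.0144). It was picked after its values were seen, as were the other lone exceptions named below, and the call ended without NF 2 (adjusted p = 0.117), without clone 1 (0.0516) and on log2(TPM + 1) (0.0836). MYOD1 and MYOG did not pass the test, with log2 fold changes of -1.41 and 0.69. In bulk RNA, fewer cells of a type and less RNA per cell cannot be told apart.

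Genes of the heart list, some of which skeletal muscle also makes, ran the same way. Of 14 tested 8 were higher and none was lower, or 57.1% called against 42.3% of all genes. The median log2 fold change was 2.80. That median was 4.77 in a fit of the 5 libraries alone and 1.68 on log2(TPM + 1), a scale that compresses low levels. MYL2, the myosin light chain of the ventricle and of slow fibres, measured 214, 90 and 107 CPM against 0.684 and 1.22 CPM (log2 fold change 7.13 ± 0.87, adjusted p = 0.000203). MYL4, the light chain of the atrium and of embryonic muscle, measured 516, 260 and 325 CPM against 1.03 and 5.42 CPM (6.83 ± 1.09, adjusted p = 0.00082). Neither gene had overlapping groups. TNNT2, cardiac troponin T, had 14.3, 3.75 and 15.8 CPM in the clones and no count in the NF libraries, so it was at least 43.4-fold higher against a floor of 3 counts over both NF libraries (adjusted p = 0.00631). HAND1, a transcription factor of the early heart, was at least 12-fold higher on the same floor. Summed over the 3 clones and over both NF libraries, MYL7 had 123 and 3 counts and TNNI3 126 and 11. TBX5 had 212 and 185 counts and TBX20 6 and 1. NPPA, with 2 and 0 counts, and NPPB, with 0 and 1, were too low to be tested. ACTC1, cardiac actin, which embryonic skeletal muscle also makes, was at 3170, 2418 and 2443 CPM against 693 and 728 CPM and was not called, with a log2 fold change of 1.91 ± 1.09 (adjusted p = 0.176). NKX2-5 and GATA4 reached at most 0.228 and 1.71 CPM in any of the 5 libraries; GATA4 passed, with NF higher, with DESeq2 (adjusted p = 0.048) and without NF 2 (0.0209).

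Neuronal genes gave the highest share of calls among the tissue lists. Of 20 tested, 18 were higher and 1 was lower, or 95% called against 42.3% of all genes. The median log2 fold change was 4.47, or 4.18 with the genes at 0 in NF set to their bounds. L1CAM, an adhesion molecule of growing axons, led all named genes. It lies on X (Sscrofa11.1, bases 124595649 to 124618292) and stood at 220, 169 and 88.4 CPM in the clones with no count in either NF library. Its level was at least 614-fold higher, with adjusted p = 0.000656.

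SLC32A1, which loads GABA and glycine into synaptic vesicles and lies on chromosome 17 (41689479 to 41694560), measured 50.9, 34.9 and 32.6 CPM against 0.171 and 0.175 CPM. With 2 counts in the NF libraries together, the ratio of the means was 229, and its counting interval ran from 63.3 to 1887 (95%, exact Poisson). The GABA-making enzyme GAD1 (46.7, 36.9 and 26.9 CPM against 0.342 and 0 CPM), the RNA-binding protein ELAVL3 (166, 108 and 106 against 1.37 and 0.874) and the intermediate filament PRPH of peripheral neurons (627, 303 and 276 against 7.01 and 0.524) followed the same order. In each of them clone 1 was highest and the groups stayed apart. SNAP91, a coat protein of synaptic vesicle recycling, had no count in NF and was at least 293-fold higher over the 7 of its 30 annotated records that matched. SYT1, the calcium sensor of vesicle release, varied most among the clones, at 46.4, 26.7 and 4.79 CPM. The one gene called lower, TBR1, a factor of cortical neurons, had at most 1.05 CPM in any library, and its call held in 1 of 5 fits that left out a library.

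Genes of neural progenitors and glia were higher in 10 of 15 cases and lower in none, or 66.7% called against 42.3% of all genes. Their median log2 fold change was 2.91, or 1.42 on log2(TPM + 1). FABP7, a fatty acid binding protein of radial glia on chromosome 1 (39872198 to 39876272), measured 435, 221 and 205 CPM against 1.37 and 1.57 CPM (log2 fold change 7.58 ± 0.89, adjusted p = 0.000177). PAX6, which patterns the neural tube and the eye, was at 10.6, 11.6 and 13 CPM against 0.171 and 0 CPM, and SOX2, the neural progenitor factor, at 36.3, 40.5 and 30.8 CPM against 5.82 and 3.67 CPM. No library of either group crossed into the other in these 3 genes. Among the genes of receptors for GABA and glutamate, a list written after results had been seen, 9 of 17 were higher and none lower. That is 52.9% called, against 42.3% of all genes.

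Position genes followed. The HOX genes, which tell cells where along the body they are, are numbered from head to tail, so that groups 9 to 13 serve the lower trunk, tail and limb ends. Of 26 HOX genes tested, 16 were higher in the normal clones and none lower, or 61.5% called against 42.3% of all genes. Their median log2 fold change was 1.91, or 4.07 with accessions matched on their version. HOXC12, on chromosome 5 (19167174 to 19169684), measured 71.6, 140 and 76.9 CPM against 0.171 and 0 CPM, with 1 count in NF and a log2 fold change of 9.73 ± 0.98 (adjusted p = 8.97e-05). HOXC13 measured 43.9, 67.7 and 33.3 CPM against 0.684 and 0.349 CPM (6.47 ± 0.67, adjusted p = 0.000103). Clone 2 was the highest in both, and the groups did not overlap. HOXB13 was at least 51.2-fold higher, and HOXD13 stood at 34.8, 49.8 and 97 CPM against 4.1 and 1.4 CPM. The call of HOXD13 ended when NF 2 was left out, as did those of HOXA13 and HOXA9. All 9 tested genes of groups 9 to 13 were called higher. Of the head-end genes, HOXA2, HOXA3, HOXA4, HOXB2 and HOXD1 were not called, with log2 fold changes between -0.77 and 1.43. HOXB1 had no count in any of the 5 libraries. HOXD3, also a head-end gene, held 1335 counts over the 3 clones and 275 over both NF libraries. Between the ends, HOXB8 was called higher (log2 fold change 4.52), while HOXC5 held 73 and 99 counts. The higher genes were thus not confined to groups 9 to 13. This reading by position was made after the values were seen.

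Factors of the LIM homeobox family, which specify spinal interneurons, motor neurons and early kidney, were higher in 4 of 7 cases (list written after results had been seen). That is 57.1% called, against 42.3% of all genes. LHX1, needed for the kidney and for interneurons, lies on chromosome 12 (38450708 to 38457583) and measured 57, 57.1 and 50.7 CPM against 0.342 and 0.175 CPM (log2 fold change 7.58 ± 0.57, adjusted p = 5.34e-05). The 3 clones were nearly level for it, and the NF libraries together held 3 counts. LHX5 had no count in NF and was at least 78.1-fold higher, and ISL1, the motor neuron factor, was at 49.3, 36.1 and 34.5 CPM against 3.59 and 1.22 CPM.

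Of 35 genes of WNT, BMP and hedgehog signalling, 15 were higher and 3 lower, or 51.4% called against 42.3% of all genes. Their median log2 fold change was 0.90. The ligand WNT7A was at 20.7, 24.1 and 17.6 CPM against 0.171 and 0.524 CPM (log2 fold change 5.80 ± 0.97, adjusted p = 0.00107). SHH, the ligand of the notochord, floor plate and limb bud, was at 8.57, 8.09 and 5.48 CPM against 1.54 and 0.524 CPM (2.81 ± 0.51, adjusted p = 0.00158). The groups were apart for both ligands. The 3 lower genes were BMP2, at 11.6, 9.67 and 12.3 CPM against 57.3 and 28.8 CPM, and the BMP targets ID1 and ID3, with log2 fold changes of -1.60 and -1.77. The call of BMP2 ended when NF 1 was left out (adjusted p = 0.0531), and those of ID1 and ID3 held in all 5 fits that left out a library.

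**Figure D2:**
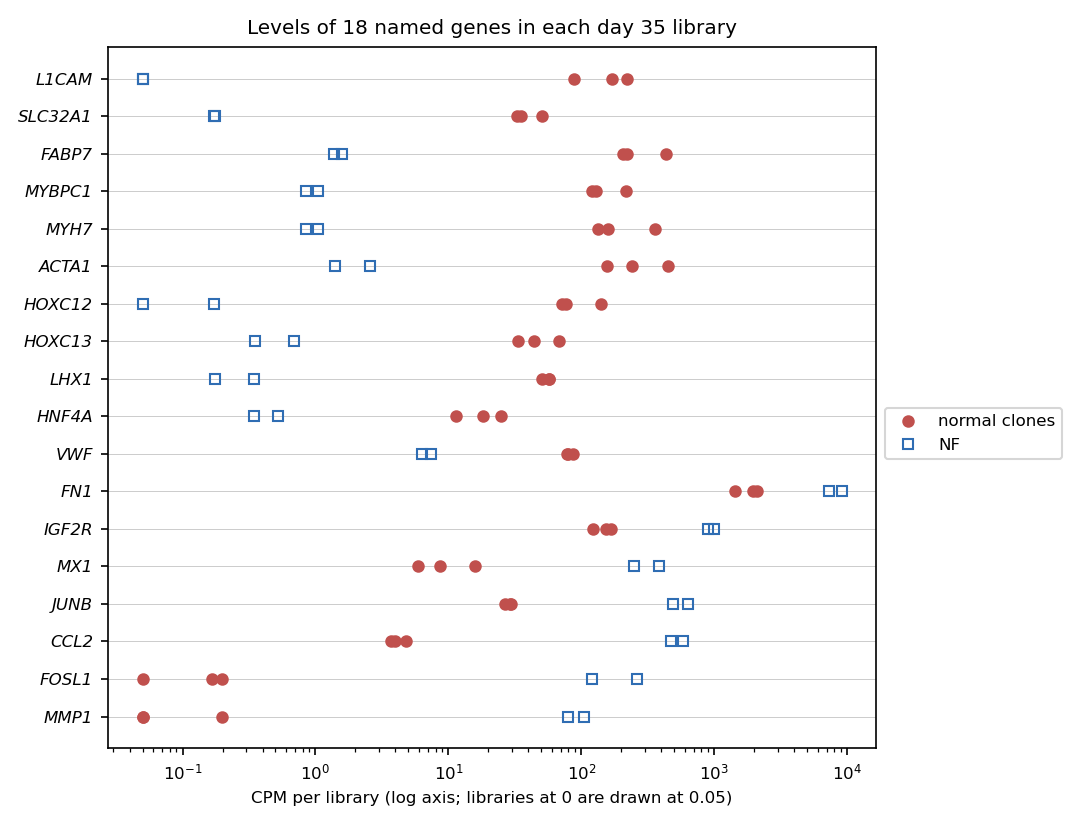
CPM on a log axis of 18 named genes in each day 35 library, filled red circles for normal clones and open blue squares for NF; libraries at 0 are drawn at 0.05. The circles and squares of each gene stand apart, from L1CAM at the top, with no count in NF, to MMP1 at the bottom, with 79.4 and 104 CPM in NF.

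Liver genes were higher in 5 of 18 cases and lower in none, the former near the 22.1% of all genes, with a median log2 fold change of 2.57, or 1.50 with genes at 0 set to their bounds and 0.41 on log2(TPM + 1). HNF4A, the factor that holds hepatocyte identity and also acts in gut and kidney, measured 24.7, 18.2 and 11.4 CPM against 0.342 and 0.524 CPM (log2 fold change 5.30 ± 0.69, adjusted p = 0.000392). CPS1, the first enzyme of the urea cycle, measured 60.2, 64.4 and 48.2 CPM against 1.54 and 0.175 CPM (6.02 ± 0.90, adjusted p = 0.000586). Both genes were high in every clone. Among secreted liver proteins APOA1 was higher, at 205, 199 and 153 CPM against 26.7 and 23.1 CPM (2.90 ± 0.59, adjusted p = 0.00294). Albumin (ALB) was at 5.21, 5.53 and 1.83 CPM against 0.855 and 0.874 CPM and was not called, and AFP, the fetal albumin, reached 1.51 CPM at most.

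In the lung and gut list 4 of 6 tested genes were higher, or 66.7% called against 42.3% of all genes. Among them was VIL1, the microvillus protein villin, which was at least 35.7-fold higher. Of 14 kidney and gonad genes 4 were higher and 1 lower, or 35.7% called against 42.3% of all genes. PAX2, of the ureteric bud and nephron progenitors, measured 69.9, 56.9 and 51.8 CPM against 0.513 and 2.27 CPM (log2 fold change 5.40 ± 0.64, adjusted p = 0.00024). SALL1, a zinc finger factor of the kidney mesenchyme, measured 83.2, 86.7 and 75.3 CPM against 5.47 and 0.874 CPM (4.67 ± 0.70, adjusted p = 0.000604). For both, every clone exceeded both NF libraries. The lower gene, SOX9, of cartilage and testis, was at 20, 19.2 and 34 CPM against 51.3 and 72.3 CPM (-1.35 ± 0.32, adjusted p = 0.00714), and its call ended without NF 2 (0.0801). Among the 18 epidermal genes 6 were higher and 1 lower, or 38.9% called. Of the 12 placental and extraembryonic genes 4 were higher and 1 lower, or 41.7% called. Their median was 0.15, or 1.40 without NF 1. Both shares were below the 42.3% of all genes.

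Blood and vessel genes gave fewer calls than muscle or neuron genes. Of 21 red cell genes 4 were higher and 2 lower, against 22.1% and 20.1% of all genes, so their count of calls was no larger than that of genes at large. Their median log2 fold change was 1.95, or 0.90 with genes at 0 set to their bounds, 0.41 on log2(TPM + 1) and 0.07 with accessions matched on their version. The sum of the list was 1615 to 3049 CPM in the clones and 448 to 477 CPM in NF. HBB, adult-type beta globin, had 1266, 2299 and 2695 CPM against 177 and 168 CPM, and clone 1 was the lowest of the clones. Its log2 fold change was 3.60 ± 1.03 with adjusted p = 0.0164, and the call ended without NF 1 (adjusted p = 0.0933), without NF 2 (0.111) and on log2(TPM + 1) (0.0845). Globin genes are near-identical copies whose reads can be split between them, so the level of any of them is uncertain. SPTB, the beta spectrin of the red cell skeleton, which muscle also makes, was at 115, 73 and 54.8 CPM against 2.05 and 1.05 CPM (5.68 ± 0.50, adjusted p = 5.58e-05). TFRC, the transferrin receptor that takes up iron, was lower in the clones, at 22.2, 28.8 and 28.5 CPM against 129 and 111 CPM (-2.18 ± 0.44, adjusted p = 0.00286).

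Endothelial genes were higher in 3 of 12 cases and lower in 1, or 33.3% called against 42.3% of all genes. Their median log2 fold change of -0.01 took either sign under other settings (-0.25 without NF 1 and 0.19 without NF 2). VWF, the clotting factor that endothelium stores, was higher, at 78.2, 79 and 87 CPM against 7.35 and 6.29 CPM (log2 fold change 3.57 ± 0.21, adjusted p = 1.38e-05; chromosome 5, 64516627 to 64655938). ENG, a TGF-beta co-receptor that fibroblasts also carry, was lower, at 170, 163 and 187 CPM against 929 and 979 CPM (-2.46 ± 0.18, adjusted p = 4.08e-05). In both genes the libraries of a group lay close together. PECAM1, a general endothelial marker, overlapped between the groups, at 158, 179 and 162 CPM against 175 and 203 CPM. Of 21 leukocyte genes 3 were higher and 1 lower, below the share of all genes in either direction. C1QB, a complement chain made by macrophages, was at 64.7, 51.9 and 39.7 CPM against 12.5 and 7.16 CPM (2.41 ± 0.47, adjusted p = 0.0024).

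**Figure D3:**
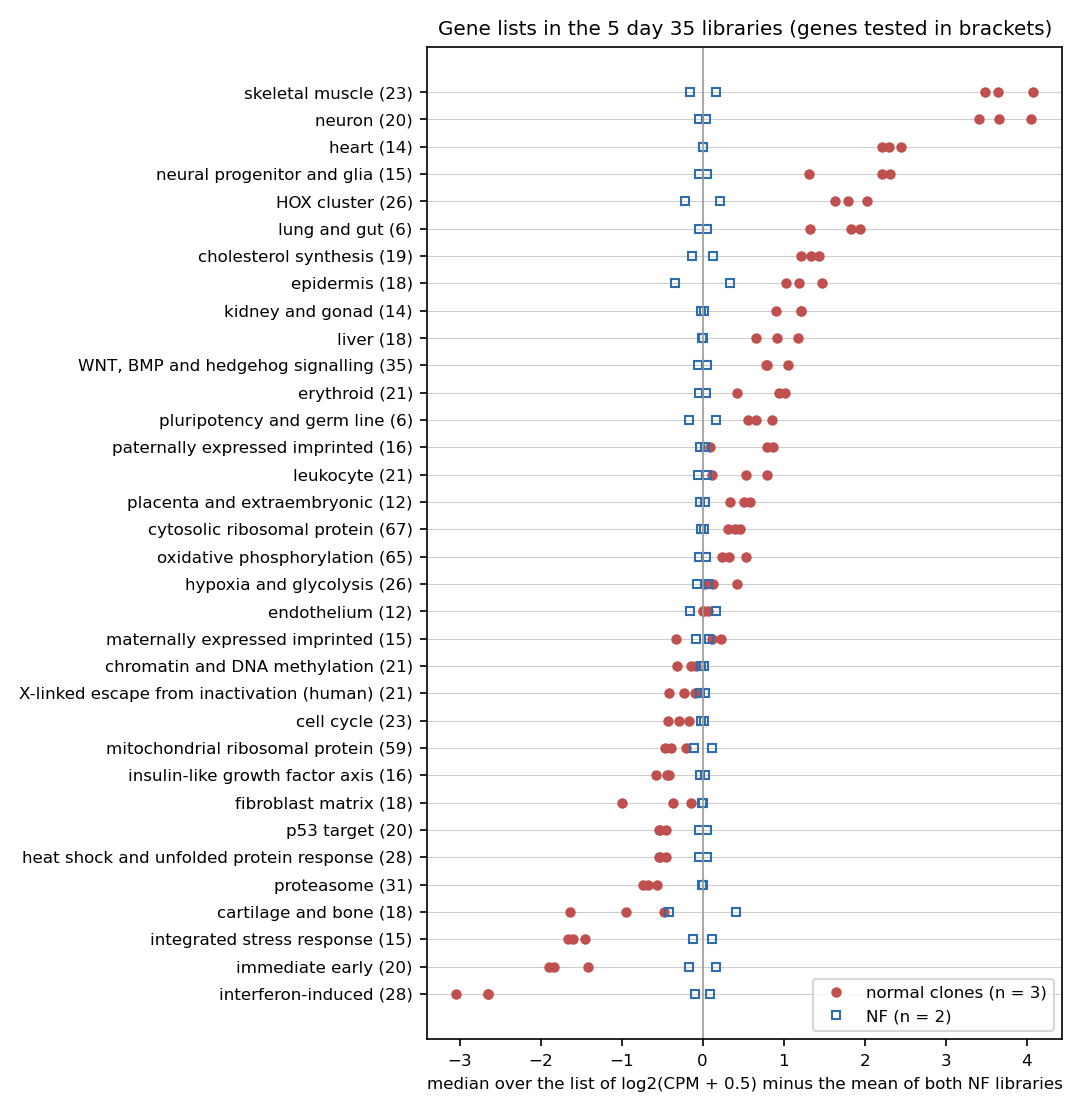
Median over each gene list of log2(CPM + 0.5) minus the mean of both NF libraries (horizontal axis), 1 row per list with the number of genes tested in brackets. Red circles are the 3 normal clones and open blue squares the 2 NF libraries; muscle, neuron and heart lists lie to the right, and the integrated stress response, immediate early and interferon-induced lists to the left.

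The genes that were lower in normal clones had other roles. Immediate early genes, which cells switch on within minutes of a stimulus without making new protein, were lower in 13 of 20 cases and higher in none. That is 65% called, against 42.3% of all genes, and their median log2 fold change was -1.69. FOSL1, a subunit of the AP-1 transcription factor on chromosome 2 (6430158 to 6436173), had 0.168, 0.197 and 0 CPM in the clones and 120 and 263 CPM in NF. That is a log2 fold change of -10.25 ± 1.26 with adjusted p = 0.000214, from 2 counts in the clones together. JUNB, another AP-1 subunit, measured 29.6, 26.5 and 29.2 CPM against 486 and 640 CPM (-4.31 ± 0.42, adjusted p = 8.22e-05).

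MYC, the growth regulator, measured 78.9, 83.5 and 69.2 CPM against 442 and 738 CPM (log2 fold change -2.93 ± 0.32, adjusted p = 0.000131). IER3 and SOCS3, the latter a brake on cytokine signalling, had log2 fold changes of -5.06 and -3.99. All 3 clones were below both NF libraries in each of these genes. The list did not move as a whole: FOS was at 49.3, 55.5 and 88.1 CPM against 90.3 and 35.6 CPM, JUN at 283, 298 and 296 CPM against 201 and 246 CPM, and neither was called. JUN passed in a fit of the 5 libraries alone (adjusted p = 0.0378), with the clones higher.

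Cytokine genes were taken from lists written after results had been seen. Chemokine genes were mixed: of 13 tested 5 were lower and 3 higher, against 20.1% and 22.1% of all genes, so the share higher was near that of all genes. The sum of the list overlapped between the groups, at 736 to 1080 CPM in the clones and 774 to 896 CPM in NF. Of 29 interleukins and their receptors 15 were lower and 2 higher, or 58.6% called against 42.3% of all genes. CCL2, which draws monocytes and lies on chromosome 12 (40798109 to 40800013), was at 3.7, 3.95 and 4.79 CPM against 475 and 583 CPM (log2 fold change -6.99 ± 1.39, adjusted p = 0.00264). IL6 had no count in any clone and 13 and 14.5 CPM in NF, so it was at least 70.6-fold lower against 3 counts over the clones. Its receptor chains went the same way: IL6R was at 0.168, 0.987 and 0.457 CPM against 7.53 and 5.07 CPM, and IL6ST at 41.2, 69.9 and 74.7 CPM against 388 and 395 CPM. The chemokines that were higher in clones were CXCL12, CXCL13 and CXCL14. CXCL14 stood at 479, 870 and 636 CPM against 53.9 and 83.9 CPM, a call that ended without NF 1 (adjusted p = 0.0926) and without NF 2 (0.0685).

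Interferon-induced genes had the lowest median of all the lists, -3.02. Of 28 tested, 23 were lower in normal clones and none higher, or 82.1% called against 42.3% of all genes. MX1, a GTPase that blocks viral replication, lies on chromosome 13 (204843049 to 204868927) and measured 15.8, 8.69 and 5.94 CPM against 385 and 251 CPM (log2 fold change -4.95 ± 0.77, adjusted p = 0.00071). RSAD2, the antiviral enzyme viperin, measured 0, 0.197 and 0 CPM against 13.3 and 11 CPM (-7.05 ± 1.21, adjusted p = 0.00122). B2M, the light chain of the class I antigen-presenting complex, measured 48.6, 52.7 and 26.9 CPM against 271 and 311 CPM (-2.76 ± 0.33, adjusted p = 0.000182). The groups were apart in all 3 genes. IFIT2 was the only tested member of the list with a log2 fold change above 1; it had counts in clone 1 alone and was not called.

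The summed level of the interferon list was 359 to 427 CPM in the normal clones and 2102 and 1783 CPM in NF 1 and 2. At day 30 the NF libraries differed from each other, with 811 and 2152 CPM, and the normal clones held 377 to 407 CPM. The level in NF thus varied between libraries of the same group at day 30, while the clones of both days were close to each other.

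Genes of the integrated stress response, which cells use when amino acids run short or proteins misfold, were lower in 11 of 15 cases and higher in none. That is 73.3% called, against 42.3% of all genes. The median log2 fold change was -1.66. ATF4, its central transcription factor, was at 434, 383 and 435 CPM against 1149 and 1485 CPM (log2 fold change -1.66 ± 0.24, adjusted p = 0.000472). TRIB3, a target that feeds back on ATF4, measured 0.673, 0.592 and 0.913 CPM against 45.7 and 91.2 CPM (-6.52 ± 0.92, adjusted p = 0.000439). The cationic amino acid transporter SLC7A1 measured 37.8, 40.9 and 47 CPM against 294 and 385 CPM (-3.02 ± 0.39, adjusted p = 0.000291). The clones were close to each other for all 3 genes and below both NF libraries.

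The aminoacyl-tRNA synthetases, which charge tRNAs with amino acids and many of which ATF4 induces, were lower in 10 of 11 cases. That is 90.9% called, against 42.3% of all genes. This list was written after results had been seen. NARS, which charges asparagine, measured 152, 160 and 171 CPM against 728 and 823 CPM (log2 fold change -2.27 ± 0.18, adjusted p = 5.08e-05). KARS, for lysine, was the exception, at 1299, 1121 and 1202 CPM against 740 and 711 CPM, and was not called (0.73 ± 0.27, adjusted p = 0.0504). It passed with the size factors of DESeq2 (adjusted p = 0.0377). ASNS, the asparagine synthetase that ATF4 induces, was uneven: it had 17 CPM in clone 2, none in clones 1 and 3, and 2.05 and 0.175 CPM in NF.

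Genes of protein folding and turnover followed in the same direction with smaller differences. Among 28 genes that answer heat shock or unfolded proteins, 12 were lower and none higher, or 42.9% called, near the 42.3% of all genes. The median log2 fold change was -0.51 against 0.06 for all genes. HSPA9, the mitochondrial member of the heat shock protein family of 70 kDa, measured 267, 255 and 242 CPM against 922 and 1065 CPM (log2 fold change -1.96 ± 0.15, adjusted p = 4.67e-05). HSPD1, the mitochondrial chaperonin, measured 283, 283 and 274 CPM against 753 and 847 CPM (-1.52 ± 0.27, adjusted p = 0.00139). HSPA1L and CRYAB lay above 0, at 0.90 and 2.43, and were not called; CRYAB passed without NF 1 (adjusted p = 0.0093). On log2(TPM + 1), where 37.4% of all genes were called, 11 genes of this list were lower and 1 was higher.

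Proteasome subunits were lower in 17 of 31 cases and higher in 1, or 58.1% called against 42.3% of all genes. Their median log2 fold change was -0.67. PSMD14, the subunit that cuts ubiquitin off substrates, was at 61, 62.4 and 71.5 CPM against 161 and 152 CPM (log2 fold change -1.27 ± 0.19, adjusted p = 0.000529). PSMB5, which carries a core catalytic site, was the gene called higher, at 245, 223 and 229 CPM against 160 and 167 CPM, and its call ended without NF 1 (adjusted p = 0.0834) and without NF 2 (0.0699). Of 20 p53 target genes 8 were lower and 1 higher, or 45% called against 42.3% of all genes. AEN, a nuclease of the apoptotic response, was at 42.7, 47.6 and 37.9 CPM against 172 and 244 CPM (-2.28 ± 0.27, adjusted p = 0.000177), and MDM2, the ligase that degrades p53, at 42.9, 50.7 and 47.7 CPM against 85.2 and 83 CPM.

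Connective tissue genes were mixed. Of 18 fibroblast matrix genes 7 were lower in the normal clones and 2 higher, or 50% called against 42.3% of all genes. The median log2 fold change was -0.38, or -0.12 without clone 3. FN1, fibronectin, measured 1434, 2107 and 1972 CPM against 7317 and 9070 CPM (log2 fold change -2.16 ± 0.25, adjusted p = 0.00018). FBN1, the microfibril protein fibrillin, measured 259, 498 and 379 CPM against 1725 and 1997 CPM (-2.30 ± 0.38, adjusted p = 0.00104). LOX, which crosslinks collagen and elastin, measured 44.2, 90 and 58.2 CPM against 272 and 502 CPM. All 3 were below both NF libraries in every clone. COL1A2, a chain of type I collagen, overlapped between the groups, at 7229, 10151 and 3970 CPM against 10238 and 8578 CPM, and was not called. OGN, a small leucine-rich proteoglycan, and TWIST1, a mesenchymal transcription factor, were higher, at 1.63 and 1.37 on the log2 scale; the call of OGN ended without NF 2 (adjusted p = 0.117).

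Among 18 cartilage and bone genes 6 were lower and 2 higher, or 44.4% called against 42.3% of all genes. Their median log2 fold change was -1.05. That median was -0.40 without NF 1 and 0.50 with accessions matched on their version. RUNX2, the master factor of bone, measured 13.8, 26.5 and 24.2 CPM against 113 and 103 CPM (log2 fold change -2.33 ± 0.28, adjusted p = 0.000203). COMP, a matrix protein of cartilage and tendon, measured 8.74, 0.592 and 6.85 CPM against 83.8 and 47.3 CPM (-3.59 ± 0.71, adjusted p = 0.00264). The clones were lower in both, and clone 2 was well below the other clones for COMP. Matrix metalloproteases, the enzymes that break down the matrix, were lower in 7 of 14 cases and higher in 3 (list written after results had been seen). Among all genes 20.1% were lower and 22.1% higher, so the share higher was near that of all genes. MMP1, the interstitial collagenase, had 0, 0.197 and 0 CPM against 79.4 and 104 CPM (-9.96 ± 1.47, adjusted p = 0.000555). MMP11 and MMP15 were higher in the clones, at 2.73 and 2.91, and MMP2 and MMP14 were not called, at 0.33 and 0.02; MMP2 passed in a fit without the abnormal groups (adjusted p = 0.0258).

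Growth factors and imprinted genes, the class best known for errors after cloning, were taken next. Of 16 genes of the insulin-like growth factor axis 6 were lower and 1 higher, or 43.8% called against 42.3% of all genes. IGF2R, which removes IGF2 from the cell surface and is expressed from the maternal copy in many mammals, lies on chromosome 1 (7369485 to 7472480). It measured 123, 166 and 153 CPM in the clones and 903 and 1004 CPM in NF, a log2 fold change of -2.69 ± 0.27 (adjusted p = 8.29e-05). Its ligand IGF2, expressed from the paternal copy, measured 809, 452 and 799 CPM against 1160 and 1361 CPM (-0.88 ± 0.24, adjusted p = 0.0132), from 1 of its 17 annotated records, and that call ended without NF 2 (0.103). Both were below NF in every clone.

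PAPPA, a protease that frees IGF from its binding proteins, was at 24.4, 32.6 and 28.3 CPM against 194 and 251 CPM (log2 fold change -2.97 ± 0.51, adjusted p = 0.00118), and its inhibitor STC2 had a log2 fold change of -3.11. IGFBP6, which binds IGF2, was at 114, 100 and 79.9 CPM against 333 and 407 CPM. IGF1 did not differ beyond its spread, at 6.89, 6.91 and 4.79 CPM against 6.67 and 5.42 CPM. IGFBP5 stood at 65.1 CPM in clone 2 and at 2.62 CPM or less in the other 4 libraries.

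The imprinted genes did not share a direction. Of 16 genes listed here as paternally expressed, 5 were higher and 4 lower, or 56.2% called. Of 15 listed here as maternally expressed, 5 were higher and 4 lower, or 60% called. Among all genes 42.3% were called, 22.1% higher and 20.1% lower. Among the paternal genes DIRAS3, a small GTPase that restrains growth, was at 326, 149 and 196 CPM against 53 and 59.9 CPM (log2 fold change 1.99 ± 0.40, adjusted p = 0.003), and NAP1L5 at 16, 6.91 and 15.8 CPM against 1.2 and 1.05 CPM (3.49 ± 0.72, adjusted p = 0.00314). DLK1, a Notch-like inhibitor of differentiation, was at 138, 53.5 and 107 CPM against 279 and 363 CPM (-1.69 ± 0.43, adjusted p = 0.0093). The call of DLK1 ended without NF 2 (adjusted p = 0.0739). Clone 2 was lowest of the clones in all 3.

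Among the maternal genes TFPI2, a protease inhibitor, was lower, at 22.2, 19.7 and 18.9 CPM against 108 and 171 CPM (log2 fold change -2.78 ± 0.33, adjusted p = 0.000177), and CALCR, the calcitonin receptor, was higher, at 5.21, 6.12 and 6.85 CPM against 0.171 and 0.349 CPM (4.41 ± 0.80, adjusted p = 0.002). PEG10, MEST and MEG3 were not called, with log2 fold changes of 0.14, -0.57 and 0.31. MEST depended on the records counted: it was called higher, at 6.01, with accessions matched on their version (adjusted p = 0.000542), and lower in a fit of the 5 libraries alone (0.044). These libraries give totals per gene and do not tell the parental copies apart.

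Cholesterol synthesis ran higher in the clones: 9 of 19 genes were higher and none lower, or 47.4% called against 42.3% of all genes. Their median log2 fold change was 1.31. TM7SF2, a sterol reductase, measured 140, 73.2 and 76.5 CPM against 3.59 and 2.97 CPM (log2 fold change 4.87 ± 0.83, adjusted p = 0.0012). FDFT1, squalene synthase, measured 209, 179 and 173 CPM against 49.9 and 30.1 CPM (2.23 ± 0.54, adjusted p = 0.00701), and its call ended without NF 2 (adjusted p = 0.0804). The groups were apart in both.

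Of 26 genes of low oxygen and glycolysis, 4 were higher and 3 lower, both below the 22.1% and 20.1% of all genes. ADM, the vasodilator peptide adrenomedullin, measured 6.22, 3.36 and 4.79 CPM against 53.2 and 147 CPM (log2 fold change -4.37 ± 0.53, adjusted p = 0.000203), and VEGFA, the vessel growth factor, measured 35.8, 45.2 and 67.1 CPM against 144 and 205 CPM, a call that ended without NF 2 (adjusted p = 0.102) and without clone 1 (0.0566). The higher genes included PFKM, the muscle form of phosphofructokinase, with a log2 fold change of 2.12, and ALDOC, the brain form of aldolase, at 317, 130 and 174 CPM against 10.4 and 8.91 CPM. The call of ALDOC ended without NF 2 (adjusted p = 0.0538). GAPDH overlapped between the groups.

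Most mitochondrial genes were not called, 40 of 59 for the ribosome and 47 of 65 for the respiratory chain. The calls below stand against 22.1% higher and 20.1% lower among all genes. Of 59 mitochondrial ribosomal proteins 17 were lower and 2 higher, with a median of -0.34, and MRPS7 was at 45.1, 37.5 and 40.2 CPM against 97.3 and 112 CPM (log2 fold change -1.36 ± 0.25, adjusted p = 0.00158). Of 65 subunits of oxidative phosphorylation 17 were higher and 1 lower, with a median of 0.36. NDUFA3, of complex I, measured 89.6, 73.6 and 87.2 CPM against 36.8 and 32.7 CPM (1.27 ± 0.21, adjusted p = 0.000927), and COX8H, a form of cytochrome oxidase found in heart and muscle, 9.58, 6.51 and 5.48 CPM against 0 and 0.175 CPM. Of 67 cytosolic ribosomal proteins 10 were higher and 2 lower, and the sum of the list was 84311 to 91427 CPM in the clones and 65369 to 67121 CPM in NF. On scalings that moved the median of all genes, the medians of these lists kept their signs.

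Few division genes were called: of 23 cell cycle genes none was higher and 1 was lower, the cyclin CCND2. The groups did not overlap for 12 genes with the clones lower and 1 with them higher. Over all genes those shares were 35.1% and 37.7%. The list summed to 1983 to 2430 CPM in the clones and to 2745 and 2751 CPM in NF. MCM2 was at 267, 256 and 308 CPM against 395 and 447 CPM and was not called (adjusted p = 0.161). It passed in a fit of the 5 libraries alone (adjusted p = 0.00694), with the clones lower. TOP2A, which untangles DNA in dividing cells, was at 364, 464 and 486 CPM against 445 and 368 CPM (log2 fold change 0.11 ± 0.58, adjusted p = 0.896). Of 21 chromatin and DNA methylation genes 3 were higher and 5 lower, or 38.1% called against 42.3% of all genes. DNMT3A, which lays down new DNA methylation, was at 74.3, 62.2 and 81 CPM against 25.7 and 16.8 CPM (1.77 ± 0.44, adjusted p = 0.00864), from 1 of its 20 annotated records, and the call ended without NF 2 (0.0938). SUZ12, a Polycomb subunit, was at 58.7, 60 and 61.6 CPM against 124 and 135 CPM (-1.11 ± 0.32, adjusted p = 0.0179), and the call ended without NF 1 (0.059), NF 2 (0.0993) or clone 1 (0.0535). DNMT1 and EZH2 were not called, with log2 fold changes of -0.89 and -0.27. Of 6 tested pluripotency and germ line genes 1, SOX2, was higher, or 16.7% called.

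X-linked genes were counted apart, because cloned embryos are known for faults in silencing the X. Of 421 X-linked genes tested 114 were higher and 53 lower in the normal clones, or 27.1% and 12.6%, against 21.9% and 20.5% of 9419 autosomal genes. Their median log2 fold change was 0.33, and that of autosomal genes 0.04, a difference of 0.28. Per clone, the difference against the NF mean was 0.19, 0.51 and 0.14, with an SD of 0.199 over the 3. Clone 2 stood apart: without it the difference was 0.13, and X-linked genes took 4.68% of its counts, against 3.69% and 3.61% in clones 1 and 3 and 3.53% and 3.39% in NF. Part of that share was the ribosomal gene RPS4X, at 653, 1515 and 697 CPM against 776 and 716 CPM. With accessions matched on their version the difference fell to 0.05. The value has no test.

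The X-linked genes known in humans to escape silencing did not follow the rest of the chromosome: of 21 tested 1 was higher and 6 were lower. Called genes made up 33.3% of them, against 39.7% of all X-linked genes tested. DDX3X, an RNA helicase, was at 315, 456 and 385 CPM against 952 and 958 CPM (log2 fold change -1.31 ± 0.16, adjusted p = 0.000236), and ZFX, a zinc finger transcription factor, at 51.1, 75 and 59.6 CPM against 135 and 134 CPM (-1.12 ± 0.22, adjusted p = 0.00242). Both were higher in clone 2 than in the other clones and still below NF. XIST was not analysed here.

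Some genes were listed at 0 throughout a group. Among called genes 133 had no count in either NF library and 22 had none in any clone. The 15 leading higher genes by the naming rule ran in log2 fold change from 12.52 (L1CAM) to 9.12 (SLC5A10), and 14 of them had no count in NF. They held neural genes such as L1CAM, SNAP91, RGS8, SYT1 and LHX5, but also JARID2, PDZRN3 and RAB3GAP1, which many tissues express. Matched were 1 of 10 annotated records of JARID2, 1 of 2 of PDZRN3, 1 of 14 of RGS8 and the single record of RAB3GAP1. The 15 leading lower genes ran from -10.25 (FOSL1) to -8.55 (SLC16A7) and held WWTR1, SLC30A6, SLC30A7, CHORDC1 and STEAP2, each listed at 0 in all 3 clones. The zinc transporter SLC30A6 was at 19 and 14 CPM in NF, with 1 of its 5 annotated records matched. WWTR1, the transcription co-activator TAZ, was at 14.2 and 10.3 CPM in NF, with its single record matched. The calls of JARID2, PDZRN3 and SLC10A6 ended without NF 2 (adjusted p between 0.0554 and 0.0675), that of CHORDC1 without NF 2 (0.0737) or clone 1 (0.0548), and that of TEX15 in each of the 5 fits that left out a library (0.0746 to 0.131).

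The same contrast at day 30, made on separate libraries, called 2906 genes, or 29.3%: 14% higher and 15.3% lower. Of the day 35 calls 2258 were also called in the same direction at day 30, or 53.9% of the day 35 calls and 77.7% of the day 30 calls, and 10 were called in opposite directions. Across the 9911 genes the log2 fold changes of both days had Pearson's r = 0.70 and Spearman's rho = 0.75. Genes are not independent replicates, and both days come from 1 fit.

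A test of the difference between both days in the same fit called 2 genes, MFAP5 and TNMD, or 0.0202% of those tested, while 1414 genes had an unadjusted p under 0.05. DESeq2 called 364. The gene lists gave side by side a median of 3.92 at day 35 and 1.24 at day 30 for muscle, 4.47 and 2.56 for neurons, 2.80 and 2.15 for heart, 1.31 and 0.49 for cholesterol synthesis, -1.66 and -1.42 for the integrated stress response and -3.02 and -2.85 for interferon-induced genes. Some lists had the larger median at day 30: red cells with 1.95 at day 35 and 3.75 at day 30, HOX genes with 1.91 and 2.31, immediate early genes with -1.69 and -2.23 and fibroblast matrix with -0.38 and -1.77. Those list differences were not tested. HNF4A had a log2 fold change of 5.30 at day 35 and -1.09 at day 30, and C1QB 2.41 and 0.15, but the difference was not called for either.

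**Figure D4:**
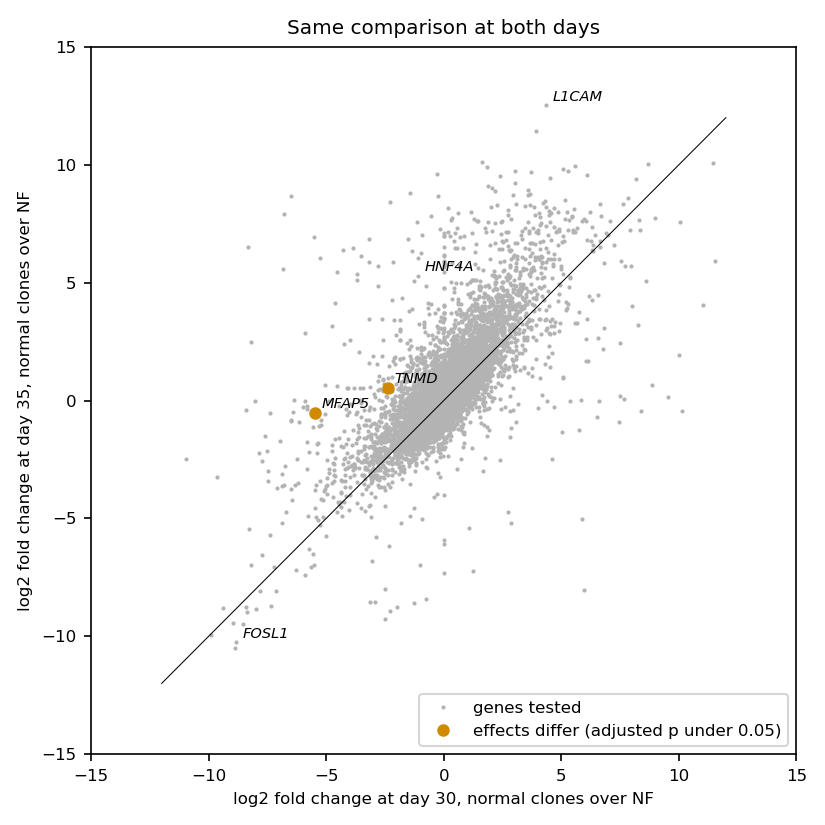
Log2 fold change of normal clones over NF at day 35 (vertical axis) against the same at day 30 (horizontal axis), 1 point per gene tested, with the line of equal change. The cloud follows the line, and the 2 orange points, MFAP5 and TNMD, mark the genes whose effects differed between the days.

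Abnormal clones at day 35 shared their NF libraries with the comparison above, so the values only stand side by side. Against NF, 2301 genes were called for the abnormal clones, or 23.2% (13% higher and 10.2% lower), from 2 libraries of which 1 was the shallowest of the fetus libraries. Skeletal muscle genes, 17 of 23 higher in the normal clones, had none higher and 4 lower in the abnormal ones, and L1CAM had log2 fold changes of 12.52 and 5.63, the latter not called. The abnormal libraries differed from each other for muscle, with a list sum of 104 CPM in abnormal clone 1 and 1039 CPM in abnormal clone 2, against 974 and 892 CPM in NF. Interferon-induced genes had medians of -3.02 and -2.50 and the integrated stress response -1.66 and 0.62. Hypoxia and glycolysis genes had 4 of 26 higher in the normal clones and 18 of 26 in the abnormal clones. There too abnormal clone 1 stood apart, with a list sum of 49967 CPM against 12403 CPM in abnormal clone 2 and 7964 and 7613 CPM in NF.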

How the data were processed

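RNA of pig fetuses was sequenced after extraction with Trizol and library preparation with a kit that does not mark strand, so reads of overlapping antisense genes cannot be told apart. The authors deposited, per sample, RSEM expected counts per RefSeq record, without normalization; RSEM 1.2.4 and the builds Sscrofa11.1 and susScr11 are named in the submitters' processing notes. The TPM values were computed by the authors in the same deposited tables and are scaled for length and depth.

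Of 65927 records, 25305 (38.4%) matched a RefSeq accession of Sscrofa11.1 with the version dropped, giving 14389 symbols, and the unmatched records were not used here, so a gene's value covers its matched records only. Expected counts were rounded and summed per symbol, since RSEM can split reads between near-identical copies. One edgeR 4.0.16 model held all 14 fetus libraries with a mean per group (filterByExpr, TMM, quasi-likelihood test, Benjamini-Hochberg, threshold 0.05). It kept 9911 genes, and contrasts gave normal clones against NF at each day, their difference, and abnormal clones against NF. In simulated counts the fit recovered 17 of 100 genes changed 2-fold and 80 of 100 changed 4-fold, with 6 false calls among 9911 genes. The simulation gave every group the same mean per gene, changed only those genes, and drew the spread from its trend with level. In the data 42.3% of genes were called and the spread varied by gene, so these figures are not rates for the real fit. A gene that was not called may still differ 2-fold. CPM are TMM-scaled; 1 count was 0.168 to 0.228 CPM in the 5 libraries, and the floor of 3 counts per group was 0.259 CPM in NF and 0.195 CPM in normal clones. Intervals and floors cover counting error only.

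Replicate counts differed by 11.2 to 17.3 times the sampling variance, so none of the 5 was a copy of another. Named genes were the 15 of largest change per direction among called genes with a mean of at least 2 CPM (1 on the log2 scale), non-overlapping groups and a formal symbol, up to 4 called genes per list, the 2 highest where a list had fewer than 2 calls, and up to 5 per direction for the difference of days. That rule gave 174 genes, and 78 more were named after their values were seen; some of these genes are not reported here. The genes, 34 lists and tests were chosen with earlier results of these data known. A further 9 lists were written after results were seen, their definitions were revised, and 6 are reported; nothing is supported with them. Alternatives were DESeq2 1.42.0, its size factors, other filters, limma 3.58.1 on log2(TPM + 1), other sets of libraries, a replicate block, accessions matched with version and leaving out each library.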

Additional observations from a re-analysis of the deposited data

Results flagged for a closer look

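For 2 genes the log2 fold change of normal clones over NF differed between day 35 and day 30 by a test of the difference itself. MFAP5, a protein of elastic microfibrils, was at 62.4, 69.3 and 39.3 CPM in the day 35 clones and 78.7 and 84.2 CPM in NF, with a log2 fold change of -0.51 ± 0.31 (edgeR adjusted p = 0.201). At day 30 the clones held 1.35 ± 0.315 CPM (SD, n = 3) and NF 59.3 ± 17.9 CPM (SD, n = 2), and the log2 fold change was -5.46. The difference between the days was 4.95 ± 0.52 (SE) with adjusted p = 0.00981. TNMD, a membrane protein of tendon cells, was at 123, 101 and 84.2 CPM in the day 35 clones against 64.1 and 76.2 CPM, and at 22.1 ± 3.77 CPM (SD, n = 3) at day 30 against 114 ± 37 CPM (SD, n = 2). Its difference was 2.92 ± 0.37 with adjusted p = 0.0297. In both genes the clones of day 30 had the lowest mean of the 4 groups. Both differences kept their sign under the alternatives run. The calls ended on log2(TPM + 1) (adjusted p = 0.096 for MFAP5 and 0.0597 for TNMD), with a replicate block (0.286 for both), without NF 1 (0.117 and 0.201), without NF 2 (0.189 for both) and without clone 1 (0.0575 and 0.107), and for TNMD also without clone 2 (0.118).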

How the results depend on the processing

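The number of genes called between normal clones and NF, 4190, lay between 3705 and 5676 under DESeq2, its size factors, 2 other filters, log2(TPM + 1) and 3 narrower sets of libraries. It was 1132 with accessions matched on their version, where fewer genes were tested, and 2168 with a replicate block. The replicate numbers did not pair the libraries (correlation of same-numbered deviations -0.02 and -0.056), so the block stands for a shared number only; 2158 of its calls were among the 4190. The cause of these shifts was not tested. Leaving out 1 library gave 2147 to 5630 calls. Higher in clones were 2195 of the 4190 calls, 2660 of 4551 with DESeq2 and 1786 of 3705 on log2(TPM + 1). The 2 genes called for the difference between days became 364 with DESeq2, 438 with normal and NF libraries only, 6 with versions matched and 0 on log2(TPM + 1) and with the replicate block; leaving out 1 library gave 0 to 473. The X-linked difference of 0.28 was 0.05 with versions matched, and its other values kept their sign. Of 212 called genes chosen for naming, 57 lost their call without NF 2, 37 without NF 1, 51 with the block and 19 on log2(TPM + 1); none of these changed direction. The median changed sign for cartilage and bone (0.50) and chromatin (0.18) with versions matched, for chemokines (0.03) without NF 1, for endothelium (from -0.01 to 0.07 with DESeq2 and its size factors, 0.19 without NF 2 and 0.06 without clone 1), and for maternally expressed genes with the block (-0.32) and without clone 3 (-0.36). HAND1 had a value of 0.00 with versions matched and was not called, and MEST, not called at -0.57, was 6.01 there. The fit of the difference was not run on the 5 libraries alone. With alternatives chosen after the data were seen, 42.5% of genes with every annotated record matched and 45.6% of genes at 10 CPM or more were called. NF rests on 2 libraries, a count of 0 allows up to 3, and most records have no symbol here.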
